A study of Mus musculus with 8 samples.

Results

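The genes described here are 49 mouse genes of glycolysis, gluconeogenesis, glycogen and the pentose phosphate pathway. They were chosen by name, with earlier results of these data known. Of these, 42 could be read on a probe set annotated to a single gene, out of 22180 genes measured in all. Pgm1, Aldoa and Tkt lay only on probe sets shared with another gene, and Pfkfb1, Gpi1, Eno1 and G6pdx had no assigned probe set, so these 7 were not analysed here. Liver RNA came from 3-month-old mice on normal chow, injected intravenously with an adeno-associated virus and killed 2 weeks later at 5 pm (ZT10). In the 4 samples labelled NCOR_KO here the virus carried Cre recombinase, and in the 4 labelled WT it carried GFP. The design text gives floxed NCOR mice to both viruses, while the labels call the controls wild-type, and the promoter driving Cre was not given in the sources used here. Cre differed with the group throughout, so its own effect and the loss of NCOR cannot be told apart. Ncor1 itself was not analysed here.

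Liver moves glucose in both directions. It takes sugar up after a meal, burns it through glycolysis, stores it as glycogen or sends it through the pentose phosphate pathway to make NADPH, and between meals it releases glucose from glycogen and from gluconeogenesis. The paths share most enzymes, and the direction is set by a few transporters, kinases and phosphatases. NCOR, a corepressor, is brought to genes by nuclear receptors and works there with the histone deacetylase HDAC3.

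Values are log2 probe-set intensities, differences are NCOR_KO minus WT on that scale, and adjusted p-values are from limma with Benjamini-Hochberg adjustment over all 22180 genes. Array medians lay between 41.0 and 44.1 in intensity. Precision is limited by having 4 arrays in each group. The labels call the replicates biological but do not link arrays to mice, so the tests reflect how far these samples vary, which may be partly technical. Hepatocyte markers were bright throughout: all 14 measured of 16 lay above the median gene level, with a summed intensity of 99209 to 102987 in WT and 100278 to 101995 in NCOR_KO livers. In whole-liver RNA, fewer cells of a type and less RNA per cell cannot be told apart.

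Slc2a1, a glucose transporter, was the 1 member that rose, and Pfkfb3, a kinase that promotes glycolysis, was the 1 that fell, at an adjusted p under 0.05. The other 40 did not pass. These 2 calls are 4.76% of the 42 members, where 1.65% of all genes were called (0.816% higher and 0.834% lower). At an unadjusted p under 0.05, 6 members were higher and 6 lower, 28.6% of the members against 15.9% of all genes (7.75% higher and 8.15% lower). The 4 NCOR_KO values lay entirely on one side of the 4 WT values for 9 members, 5 higher and 4 lower, which is 21.4% against 10.4% of all genes (4.90% higher and 5.49% lower). All members but Hk1, Pfkfb4 and Ldhb were at or above the median gene level, so these shares set mostly bright genes against bright and dim ones. With genes under that level dropped, 551 of 11090 genes were called, and among the members 2 were called higher and 1 lower. Differences ran both ways, with 19 members above 0 and 23 below, and the median was -0.01 over the members and 0.01 over all genes. After centring every array at its median, the 366 calls over all genes, 181 higher and 185 lower, became 145 higher and 295 lower.

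**Figure D1:**
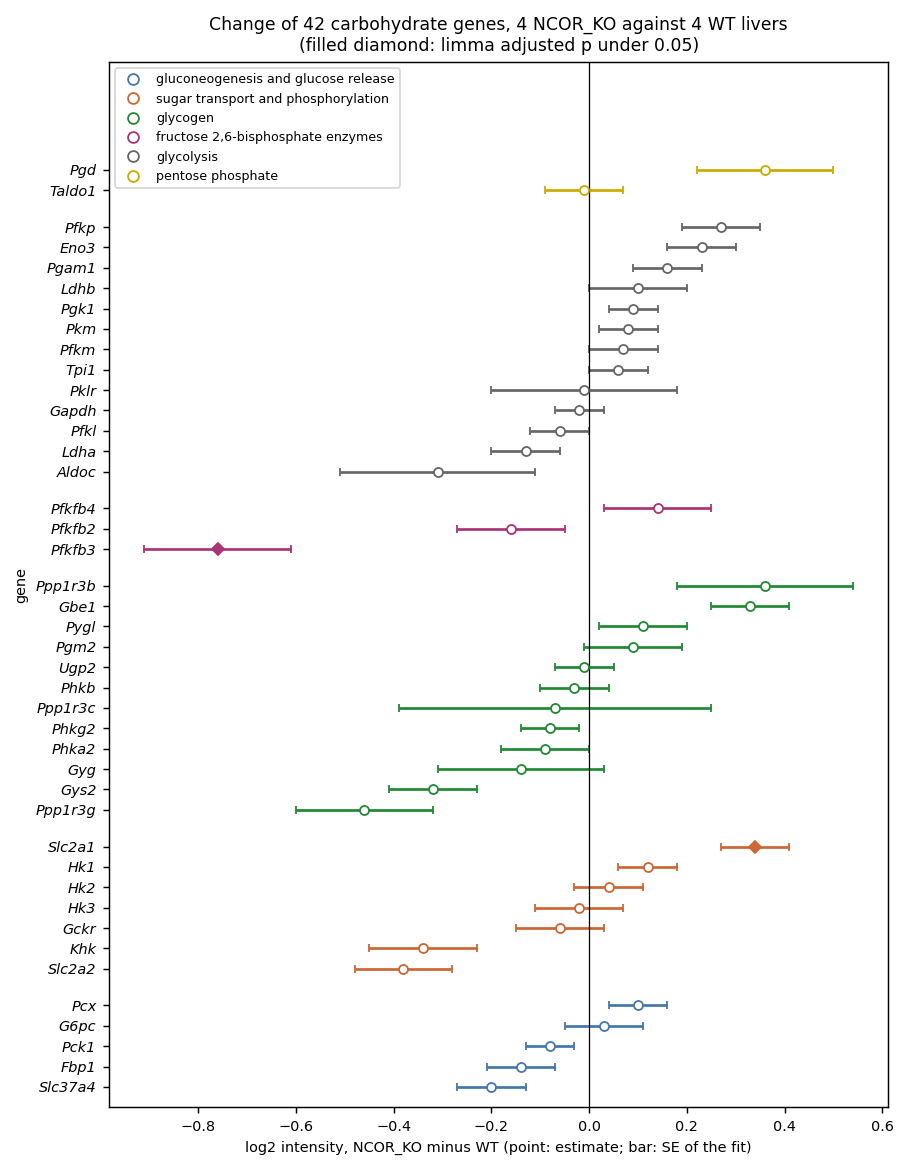
Log2 difference (NCOR_KO minus WT, horizontal axis) of the 42 measured genes, coloured by branch, with the standard error of the fit as a bar. Pfkfb3 at -0.76 and Slc2a1 at 0.34 are the filled diamonds that passed an adjusted p under 0.05, and most other genes lie within 0.4 of 0.

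The promoters of the called members are shown because these are the members that passed the threshold. They are RefSeq windows on GRCm38.p6 from 250 bases before to 50 bases after an annotated start, with 1 window for Slc2a1 and 2 for Pfkfb3. Capitals mark matches, on either strand, to AGGTCA (the nuclear receptor half-site), CACGTG (the E-box bound by basic helix-loop-helix factors) and GGGCGG (the GC box).
Slc2a1, chr4:119108495-119108794, plus strand: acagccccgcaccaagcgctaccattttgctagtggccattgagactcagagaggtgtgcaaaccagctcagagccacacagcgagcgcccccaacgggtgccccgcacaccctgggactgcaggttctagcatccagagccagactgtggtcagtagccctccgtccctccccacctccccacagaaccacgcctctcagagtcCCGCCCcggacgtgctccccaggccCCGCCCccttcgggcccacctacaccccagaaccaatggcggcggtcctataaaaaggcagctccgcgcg
Pfkfb3, chr2:11502041-11502340, minus strand: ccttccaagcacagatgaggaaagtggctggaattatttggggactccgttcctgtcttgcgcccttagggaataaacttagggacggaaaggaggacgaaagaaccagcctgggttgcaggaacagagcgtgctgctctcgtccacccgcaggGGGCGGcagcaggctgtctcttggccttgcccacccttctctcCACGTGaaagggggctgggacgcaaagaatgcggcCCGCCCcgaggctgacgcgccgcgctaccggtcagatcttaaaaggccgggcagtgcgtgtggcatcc
Pfkfb3, chr2:11553880-11554179, minus strand: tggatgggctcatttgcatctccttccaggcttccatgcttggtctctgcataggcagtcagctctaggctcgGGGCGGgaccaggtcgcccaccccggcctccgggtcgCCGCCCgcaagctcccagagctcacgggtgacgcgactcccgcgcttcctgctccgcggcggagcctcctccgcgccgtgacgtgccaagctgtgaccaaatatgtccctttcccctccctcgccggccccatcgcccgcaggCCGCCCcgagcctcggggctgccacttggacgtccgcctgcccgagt

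The Slc2a1 window held 2 GC boxes and neither of the other motifs. The Pfkfb3 window at the lower coordinates held 1 E-box and 2 GC boxes, and the other held 3 GC boxes. The E-box was present in 7.15% of all 32851 windows of 300 bases, the half-site in 16.3% and the GC box in 35.7%. Among 56 windows of 40 members, 8 held the E-box, 11 the half-site and 32 the GC box. These matches describe letters in the windows, and the array values do not say which start was used.

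None of the measured genes that release glucose passed the threshold. G6pc, the catalytic subunit of glucose-6-phosphatase, read 12.83, 12.79, 13.09 and 13.09 in WT replicates 1 to 4 and 13.04, 13.02, 12.97 and 12.90 in NCOR_KO replicates 1 to 4. All NCOR_KO values fell inside the WT range, and the difference was 0.03 ± 0.08 (SE, n = 4 per group; adjusted p = 0.893) with a 95% interval of -0.15 to 0.21. Centring every array at its median, which moved the median of all genes from 0.0063 to -0.0295, gave -0.01.

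Pck1, the phosphoenolpyruvate carboxykinase that commits carbon to gluconeogenesis, read 12.92, 13.01, 12.93 and 12.97 in WT and 12.89, 12.87, 12.92 and 12.85 in NCOR_KO livers. The groups met at 12.92, and the interval of the difference was -0.20 to 0.04 (adjusted p = 0.527). Slc37a4, which carries glucose 6-phosphate into the endoplasmic reticulum for G6pc, had the largest difference of this branch. It read 12.15, 12.17, 12.28 and 12.32 in WT against 11.88, 12.01, 12.09 and 12.15 in NCOR_KO livers, with the highest NCOR_KO array touching the lowest WT array but not passing it. The difference, -0.20 ± 0.07, had a 95% interval of -0.36 to -0.04 and an unadjusted limma p of 0.0203. It did not pass (adjusted p = 0.217). Fbp1, the fructose bisphosphatase, differed by -0.14 and Pcx, the pyruvate carboxylase, by 0.10 (adjusted p = 0.350 and 0.412). The 95% intervals of these 5 genes, each for its own gene, reached from -0.36 (Slc37a4) to 0.23 (Pcx). With 4 arrays per group, changes inside these intervals are not excluded.

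Sugar transporters held 1 of the 2 calls. Slc2a1 encodes GLUT1, a facilitative transporter found in most tissues, and Slc2a2 encodes GLUT2, the main glucose carrier of hepatocytes. On its brighter probe set Slc2a1 read 8.85, 9.03, 8.90 and 8.81 in WT and 9.18, 9.20, 9.25 and 9.31 in NCOR_KO livers. The highest WT value was below the lowest NCOR_KO value, and Slc2a1 rose 1.26-fold (0.34 ± 0.07, adjusted p = 0.0373). With each array centred on its median the difference was 0.30 (adjusted p = 0.0866). Without single arrays it stayed between 0.31 and 0.38, but the call was kept only on omitting WT replicate 2 (adjusted p = 0.0214). Omitting WT replicate 1, 3 or 4 gave an adjusted p of 0.0951, 0.0823 or 0.0972. Omitting NCOR_KO replicate 1, 2, 3 or 4 gave 0.0723, 0.0989, 0.0891 or 0.0790.

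The dimmer Slc2a1 probe set did not follow. It read 4.71, 4.51, 4.27 and 4.12 in WT and 4.20, 4.22, 4.11 and 4.19 in NCOR_KO livers, below the median gene level of 5.88. The groups overlapped and the difference was -0.22 ± 0.11 (adjusted p = 0.380 over 23521 single probe sets, of which 1.56% passed), so 1 of 2 Slc2a1 probe sets passed. Their mean gave Slc2a1 a difference of 0.06 (adjusted p = 0.757).

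Most markers of other liver cells did not pass the test. For comparison, 52.0% of all genes were above 0 and 1.65% were called. All 13 endothelial markers were above 0 (median 0.23, with 1 called), and their summed intensity was 8746 to 10625 in WT and 10463 to 11840 in NCOR_KO livers. All 6 measured cholangiocyte markers of 8 were also above 0 (median 0.23, with 1 called), at 335 to 356 in WT and 388 to 457 in NCOR_KO livers, and 3 of the 6 were below the median gene level. The 3 measured erythroid markers of 10 had 1 above 0 and 0 called, at 172 to 201 against 142 to 167. Of the other lists, 9 of 12 macrophage, 7 of 9 lymphocyte (2 called higher), 8 of 9 skeletal muscle, 5 of 10 stellate cell and 3 of 8 neutrophil markers were above 0. At an unadjusted limma p under 0.05, 8 of 13 endothelial and 3 of 6 cholangiocyte markers were higher. So were 3 of 9 lymphocyte and 3 of 9 skeletal muscle markers, against 7.75% of all genes. Lower were 1 of 8 neutrophil and 1 of 3 erythroid markers, against 8.15% of all genes, and the macrophage and stellate cell lists had 0 either way. The part of these cells in the Slc2a1 result was not tested.

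Slc2a2 lay on the other side. It read 11.46, 11.59, 11.65 and 11.90 in WT and 11.20, 11.15, 11.37 and 11.38 in NCOR_KO livers, so the groups did not overlap. The difference was -0.38 ± 0.10, or 1.30-fold lower, with an interval of -0.59 to -0.16, and it missed the threshold (adjusted p = 0.0874). WT replicate 4 was the brightest array, and without it the difference was -0.29.

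Among the sugar kinases and their regulator, Khk had the largest difference. Khk, ketohexokinase, traps fructose as fructose 1-phosphate. It read 10.81, 10.78, 11.21 and 11.12 in WT and 10.64, 10.48, 10.70 and 10.74 in NCOR_KO livers. WT replicates 1 and 2 lay close above the NCOR_KO values and WT replicates 3 and 4 well above them, and the difference of -0.34 ± 0.11 did not pass (adjusted p = 0.145). Hk1, Hk2 and Hk3, the hexokinases of most other tissues, differed by 0.12, 0.04 and -0.02, and Gckr, a nuclear inhibitor of the liver hexokinase, by -0.06. Their adjusted p-values ran from 0.419 (Hk1) to 0.921 (Hk3).

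**Figure D2:**
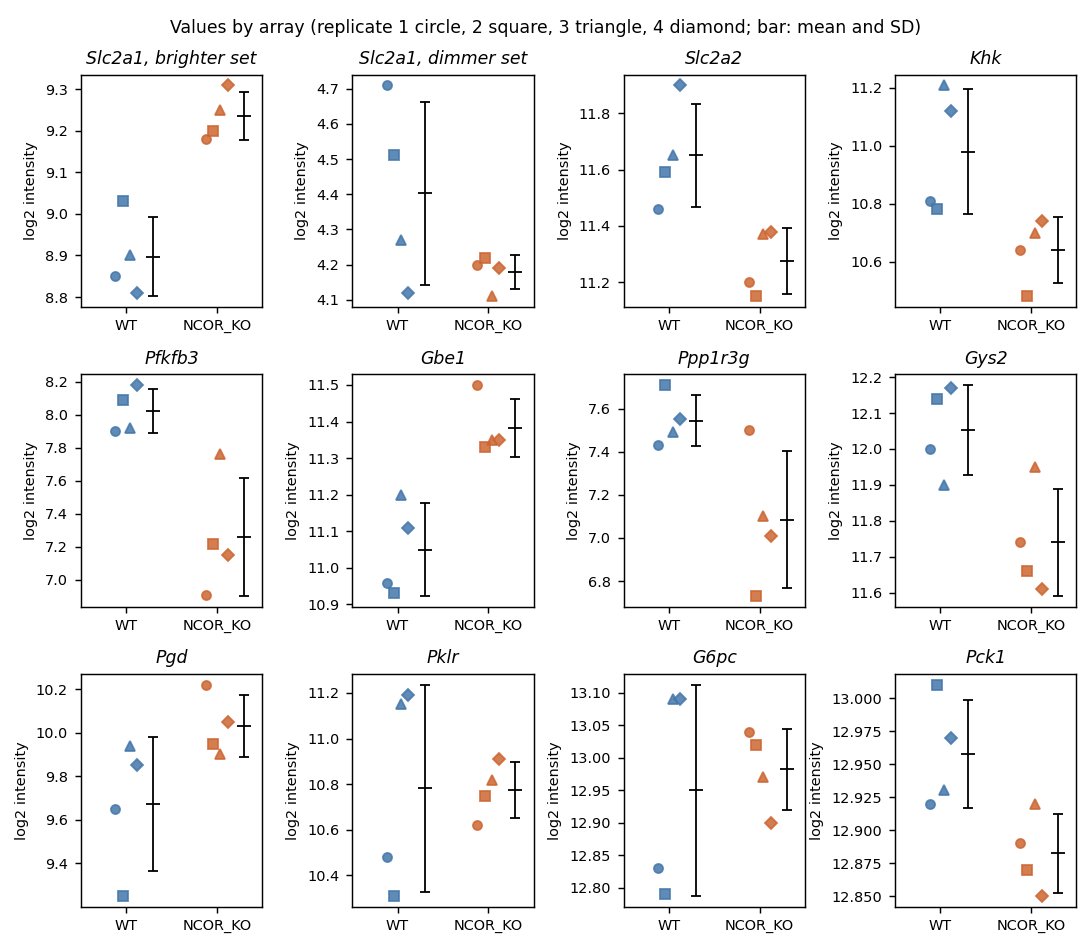
Log2 intensity (vertical axis, scaled per panel) in each WT and NCOR_KO array, with group mean and SD beside the points. The groups part for the brighter Slc2a1 probe set, Slc2a2, Khk, Pfkfb3 and Gbe1, and overlap for the dimmer Slc2a1 probe set, Ppp1r3g, Gys2, Pgd, Pklr, G6pc and Pck1.

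Pfkfb3 showed the largest difference of all 42 genes. It encodes a bifunctional enzyme whose kinase activity makes fructose 2,6-bisphosphate, the activator of phosphofructokinase. It read 7.90, 8.09, 7.92 and 8.18 in WT and 6.91, 7.22, 7.76 and 7.15 in NCOR_KO livers. NCOR_KO replicate 3 lay close under the lowest WT array, the other three well below. Pfkfb3 fell 1.70-fold (-0.76 ± 0.15, 95% interval -1.11 to -0.42, adjusted p = 0.0390).

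On omission of single arrays the Pfkfb3 difference ranged from -0.93 to -0.65, and most omissions ended the call. Omitting WT replicate 1, 2, 3 or 4 gave an adjusted p of 0.0778, 0.0736, 0.0770 or 0.106. Omitting NCOR_KO replicate 1, 2 or 4 gave 0.0867, 0.118 or 0.0858. Without NCOR_KO replicate 3 it was 0.00496. The related kinases that were measured did not pass: Pfkfb2 differed by -0.16 (adjusted p = 0.525) and Pfkfb4, which was below the median gene level, by 0.14 (adjusted p = 0.579). Pfkfb1, of the same family, had no assigned probe set and was not measured.

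**Figure D3:**
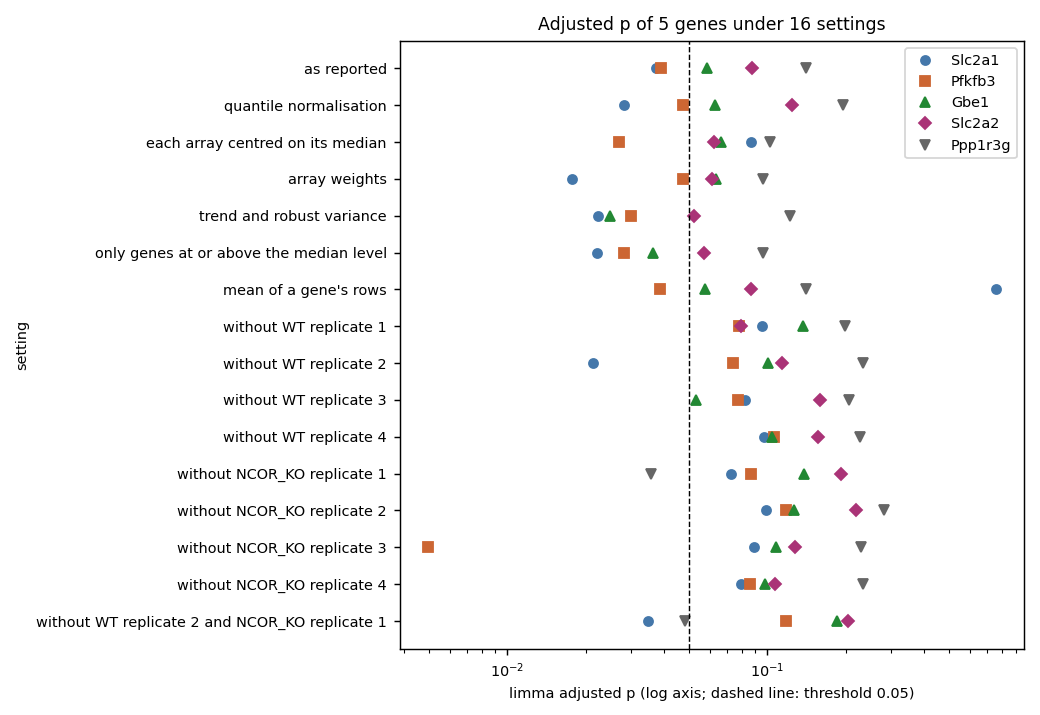
Limma adjusted p (horizontal log axis) of Slc2a1, Pfkfb3, Gbe1, Slc2a2 and Ppp1r3g as reported and under other scalings, filters and omissions of arrays. The threshold of 0.05 is a dashed line. The test against 1.2-fold, where Slc2a1 has 1.0 and Pfkfb3 0.691, is not drawn. Nor is the replicate block, where Slc2a1 has 0.106 and Pfkfb3 0.0738. Among the settings drawn, Slc2a1 ranges from 0.0177 with array weights to 0.757 with the mean of its probe sets, and Slc2a2 stays to the right of the line.

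Glycogen genes had 0 calls with limma among 12 measured. At an unadjusted p under 0.05, where 7.75% of all genes were higher and 8.15% lower, 3 passed (1 higher, 2 lower). Gbe1, the branching enzyme that gives glycogen its side chains, came closest. It read 10.96, 10.93, 11.20 and 11.11 in WT and 11.50, 11.33, 11.35 and 11.35 in NCOR_KO livers, higher in every NCOR_KO array. The 1.26-fold difference, 0.33 ± 0.08, had an adjusted p of 0.0586, which became 0.0249 with a trend and robust variance and 0.0364 when genes dimmer than the median gene were dropped. With single arrays left out it lay between 0.0530 and 0.138.

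Gys2, the liver glycogen synthase that Gbe1 works beside, differed the other way. Its WT values ran from 11.90 to 12.17 and its NCOR_KO values from 11.61 to 11.95, with a difference of -0.32 ± 0.09 (adjusted p = 0.118). NCOR_KO replicate 3 alone reached into the WT range.

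Ppp1r3b, Ppp1r3c and Ppp1r3g encode subunits that bring protein phosphatase 1 to glycogen, and none of them passed. Ppp1r3g read 7.43, 7.71, 7.49 and 7.55 in WT and 7.50, 6.73, 7.10 and 7.01 in NCOR_KO livers, a difference of -0.46 ± 0.14 (adjusted p = 0.141). NCOR_KO replicate 1 sat among the WT arrays, and without it the difference was -0.60 (adjusted p = 0.0357). The other 7 single omissions did not pass, and without NCOR_KO replicate 2 the difference was -0.34 (adjusted p = 0.282). Ppp1r3b had 2 probe sets that differed by 0.36 and 0.32 (adjusted p = 0.371 and 0.456 over single probe sets), with WT replicate 1 lowest on both. On its brighter probe set the difference ran from 0.16 to 0.48 with single arrays left out. Ppp1r3c was the most variable, with an SD of 0.77 in WT, where replicate 1 read 8.73 and replicate 2 read 10.59, and its interval of -0.77 to 0.63 leaves its difference undetermined.

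The estimates of the remaining glycogen genes were within 0.14 of 0. Pygl, the liver phosphorylase, differed by 0.11, and its activating kinase subunits Phka2, Phkb and Phkg2 by -0.09, -0.03 and -0.08. Gyg, the glycogenin primer, differed by -0.14, with a wide 95% interval of -0.51 to 0.23. Ugp2, which makes UDP-glucose, differed by -0.01, and Pgm2, of the phosphoglucomutase family, by 0.09. The adjusted p-values of these remaining genes lay between 0.524 and 0.932.

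Glycolytic enzymes had 0 calls with limma among 13 measured. At an unadjusted p under 0.05, where 7.75% of all genes were higher and 8.15% lower, 3 passed, all higher. These were Pfkp, the platelet-type phosphofructokinase (0.27 ± 0.08, adjusted p = 0.138), Eno3, the beta enolase (0.23 ± 0.07, adjusted p = 0.135), and Pgam1, a phosphoglycerate mutase (0.16 ± 0.07, adjusted p = 0.272). Eno3 ran from 7.37 to 7.61 in WT and from 7.71 to 7.82 in NCOR_KO livers, with no overlap. Pgam1 did not overlap on its brighter probe set, while its other probe set differed by 0.03. Pgk1, phosphoglycerate kinase, also parted the groups, by a difference of only 0.09.

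Pklr, the liver pyruvate kinase, had a mean of 10.78 ± 0.46 (SD, n = 4) in WT and 10.77 ± 0.12 in NCOR_KO livers. It read 10.48, 10.31, 11.15 and 11.19 in WT, against 10.62, 10.75, 10.82 and 10.91 in NCOR_KO livers. The WT arrays stood at either end with the NCOR_KO arrays between them, so the difference of -0.01 ± 0.19 carries an interval of -0.42 to 0.40 (adjusted p = 0.990). Its sign turned without WT replicate 3 (0.12) or 4 (0.13), and without NCOR_KO replicate 1 (0.04).

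Aldoc, an aldolase, had the largest estimate of the glycolytic group. It read 8.58, 8.42, 8.70 and 8.77 in WT and 7.79, 8.0, 8.68 and 8.78 in NCOR_KO livers. NCOR_KO replicates 1 and 2 were low and replicates 3 and 4 lay with the controls, and the difference was -0.31 ± 0.20 (adjusted p = 0.492). It was -0.13 without NCOR_KO replicate 1 and -0.46 without NCOR_KO replicate 4. The other 8 genes, namely Pfkl, Pfkm, Tpi1, Gapdh, Pgk1, Pkm, Ldha and Ldhb, lay between -0.13 (Ldha) and 0.10 (Ldhb). Gapdh, often used as a reference transcript, differed by -0.02 with an interval of -0.14 to 0.10.

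Of the pentose phosphate genes Pgd and Taldo1 were measured, with 0 calls by limma. At an unadjusted p under 0.05, where 7.75% of all genes were higher, 1 was higher. Pgd, the phosphogluconate dehydrogenase that yields NADPH, read 9.65, 9.25, 9.94 and 9.85 in WT and 10.22, 9.95, 9.90 and 10.05 in NCOR_KO livers. WT replicate 3 lay just above NCOR_KO replicate 3, so the groups overlapped, and the difference of 0.36 ± 0.14 did not pass (adjusted p = 0.243). WT replicate 2 was lowest, and without it the difference was 0.21, or 0.15 with NCOR_KO replicate 1 left out as well. Taldo1, transaldolase, differed by -0.01.

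Among the 42 genes, the lowest WT value came mostly from 2 arrays. WT replicate 2 was the lowest WT array for 21 of the 42 genes and WT replicate 1 for 14, against 4 and 3 for WT replicates 3 and 4. Among NCOR_KO arrays the lowest value was spread over replicates 1 to 4 (10, 9, 13 and 10 genes). The same count over all genes was not made, so this cannot be called particular to these genes. In limma array weights over all genes, WT replicate 2 had the lowest weight, 0.538, with the other arrays at 0.807 to 1.48.

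**Figure D4:**
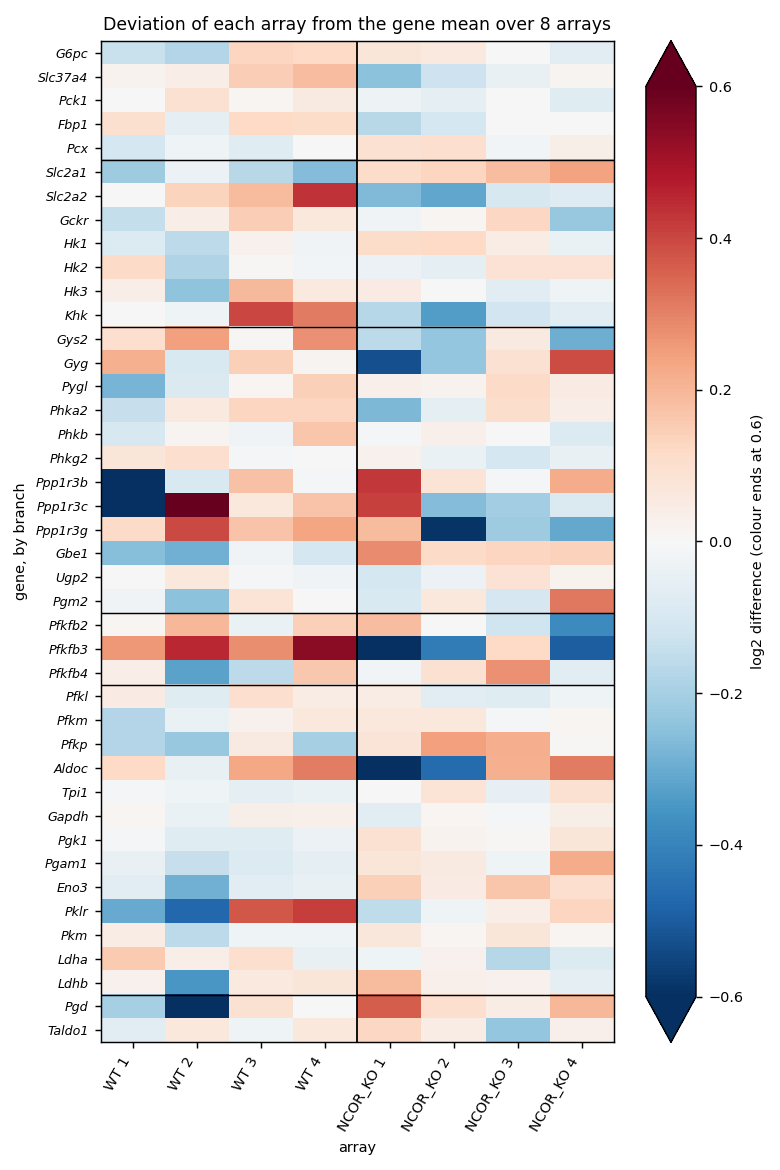
Each array's log2 difference from the gene's mean over 8 arrays, with genes in rows by branch and arrays in columns, WT left and NCOR_KO right of the line. Pfkfb3 is red in the WT and mostly blue in the NCOR_KO columns, Slc2a1 the reverse, and Pklr splits WT replicates 1 and 2 (10.48 and 10.31) from 3 and 4 (11.15 and 11.19).

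Other sugar genes and regulators were read from 3 lists of 117 genes, 106 of them measured, of which 2 rose, 2 fell and 102 did not pass. These 4 calls are 3.77% of the 106, against 1.65% of all genes. The lists were written with earlier results of these data known, so this share only describes them. Among 53 further pathway enzymes and transporters 1 rose and 0 fell. This was Gpd2, the mitochondrial glycerol phosphate dehydrogenase of the shuttle that carries electrons from glycolysis (0.63 ± 0.10, adjusted p = 0.0121, or 0.05005 without NCOR_KO replicate 2). It read 8.25, 8.47, 8.53 and 8.68 in WT and 9.20, 9.24, 8.99 and 9.03 in NCOR_KO livers, without overlap. Among 35 regulators Igfbp1, a secreted binding protein of insulin-like growth factors, rose 1.60-fold (0.68 ± 0.11, adjusted p = 0.0146). It read 10.86, 11.17, 11.0 and 10.64 in WT and 11.59, 11.43, 11.73 and 11.64 in NCOR_KO livers, and omitting any single array left its adjusted p between 0.00837 and 0.04983.

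Arrdc4, an arrestin-domain gene induced by glucose, and Cebpa, a hepatocyte transcription factor, were the 2 regulators that fell. Arrdc4 read 8.49, 8.65, 8.87 and 8.88 in WT and 8.04, 8.06, 8.30 and 8.31 in NCOR_KO livers, without overlap (-0.54 ± 0.10, adjusted p = 0.0353). Omitting WT replicate 3 or 4 gave an adjusted p of 0.0823 or 0.0932, and omitting NCOR_KO replicate 1, 2 or 3 gave 0.0901, 0.109 or 0.0563. Cebpa read 11.15, 11.10, 11.04 and 11.13 in WT and 10.81, 10.79, 10.68 and 10.74 in NCOR_KO livers, and fell by 0.35 ± 0.06 (adjusted p = 0.0158). Omitting WT replicate 1 or 4 gave an adjusted p of 0.0510 or 0.0549, and omitting NCOR_KO replicate 2 or 3 gave 0.0536 or 0.0514.

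The list of fructose, galactose, mannose and hexosamine genes had 0 calls with limma among 18 measured, while 14 of them were below 0 (median -0.08) and 6 were lower at an unadjusted p under 0.05. These are 77.8% and 33.3% of the list, against 48.0% and 8.15% of all genes. The list was written with earlier results of these data known, so these shares only describe it. Gfpt1, which commits fructose 6-phosphate to hexosamine synthesis, had the largest difference. It read 7.89, 7.57, 7.92 and 7.77 in WT and 7.59, 7.45, 7.34 and 7.29 in NCOR_KO livers (-0.37 ± 0.09, adjusted p = 0.0809). Its adjusted p was 0.0377 with median centring and 0.0327 with array weights. It was 0.0362 without WT replicate 2, and 0.0826 to 0.181 with any other single array left out. NCOR_KO replicate 1 lay just above WT replicate 2, so the groups overlapped.

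**Figure D5:**
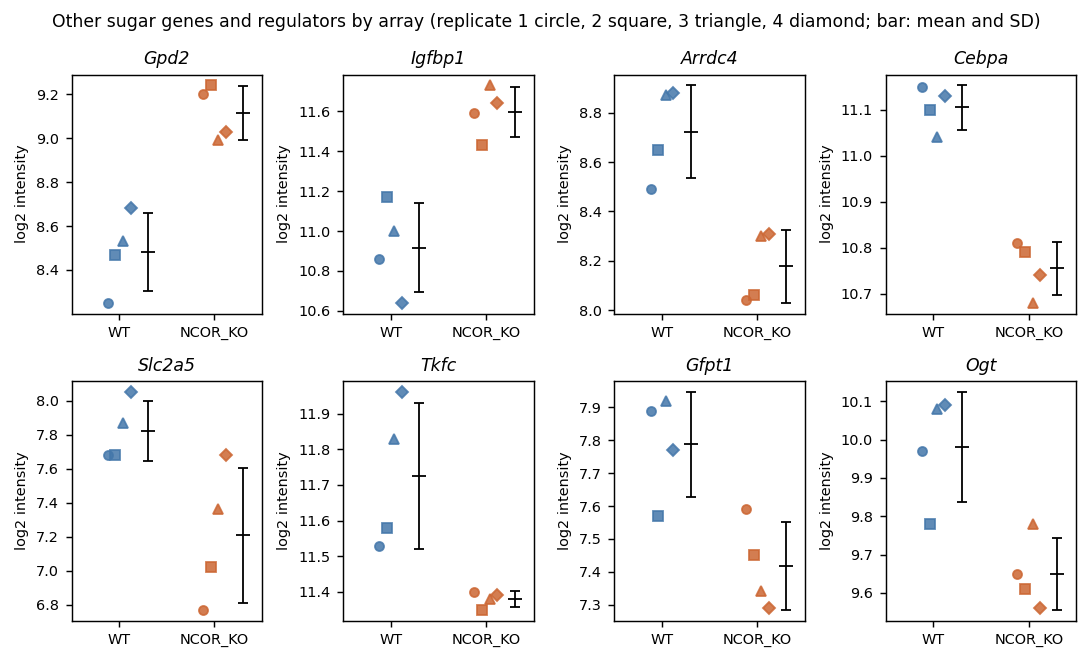
Log2 intensity (vertical axis, scaled per panel) of 8 further sugar genes and regulators in each array, with group mean and SD beside the points. Gpd2 and Igfbp1 are higher and Arrdc4 and Cebpa lower in every NCOR_KO array; Slc2a5, Tkfc, Gfpt1 and Ogt are lower on average and did not pass.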

How the data were processed

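The authors deposited 1-colour Affymetrix Mouse Gene 2.0 intensities on a linear scale. RMA and Partek are named, without roles, in the submitters' processing notes. No source used here gives their versions, a filter or a build. The lowest intensity was 5.42 and the highest 13268, and values were converted to log2 without renormalizing. Of 41345 probe sets, 23521 had a single gene by the platform annotation; 1814 with several genes and 16010 with none were left out. Symbols were set beside RefSeq (GRCm38.p6): 23328 matched and 0 changed. The brightest probe set per gene over 8 arrays gave 22180 genes, with no filter on dim ones; all probe sets of Slc2a1 were also read singly.

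Groups and replicate numbers came from the sample titles. Limma 3.58.1 (R 4.3.3; lmFit, eBayes, group only) was fitted over all genes, with a threshold of 0.05. Intervals are 95% intervals of the fit. The steps were tested on simulated data. The members, lists and rules were chosen with earlier results of these data known, and promoter motifs after the values were seen. Values of all arrays are given for members past the threshold, for those with an unadjusted p under 0.05 and at least 1.25-fold change, for the largest difference per branch, and for G6pc, Pck1, Pklr and Slc2a2. Other members whose single values are given (Gys2, Eno3, Ppp1r3c) were chosen after their values were seen. Of the other lists, members past the threshold, or the largest difference, are named.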

Additional observations from a re-analysis of the deposited data

Results flagged for a closer look

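Gbe1 in NCOR_KO replicate 1, at 11.50, stood apart from the other NCOR_KO arrays (11.33, 11.35 and 11.35). Its gap to the nearest array was 0.879 of the group's range, above Dixon's critical value of 0.829 for 4 samples. This was 1 of 34 groups examined, and chance marks about 1 group in 20. Without NCOR_KO replicate 1 the difference of Gbe1 was 0.30 (limma adjusted p = 0.138).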

How the results depend on the processing

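Against 1 member called higher, 0 were called with each array centred on its median, with probe sets averaged per gene, with limma's treat test against 1.2-fold and at a threshold of 0.01. The count was 2 with a trend and robust variance, with genes under the median gene level dropped and at a threshold of 0.1, and 0 to 1 with single arrays left out. Against 1 member called lower, 0 were called with treat and at 0.01, 2 at 0.1, and 0 to 1 with single arrays left out. Against 2 other carbohydrate genes called higher, 0 were called with treat and at 0.01, 1 without WT replicate 2 and NCOR_KO replicate 1 (an alternative chosen after seeing the data), and 1 to 3 with single arrays left out. Against 2 called lower, 4 were called with median centring, with array weights and at 0.1, 0 with treat and at 0.01, and 0 to 4 with single arrays left out. Of the Slc2a1 probe sets 0 were called with median centring, treat and at 0.01, and 0 to 1 with single arrays left out.

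The replicate numbers did not pair the samples: same-numbered deviations from the group means correlated at -0.0935 to 0.0167, and 0 of 4 WT arrays correlated best with their own number. With the replicate block, 0 members were called higher, 0 lower, 0 other genes higher, 2 other genes lower and 0 Slc2a1 probe sets, and calls over all genes went from 366 to 155. The 2 other genes called lower were not the same pair as before: Arrdc4 kept its call (limma adjusted p = 0.0186) and Cebpa lost it (0.0565). Over all genes the treat test made 36 calls, dropping genes under the median gene level (11090 genes left) made 551, omitting single arrays made 120 to 297, and omitting both arrays named above made 202.

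Over 17 named genes and up to 16 alternatives, not counting the treat test, 221 of 272 values kept their direction and side of the threshold. The call was lost in 34 and gained in 8. The sign turned in 9, none of them called. With single arrays left out G6pc ran from -0.02 to 0.08 and Pklr from -0.17 to 0.13. G6pc went to -0.01 with median centring, -0.000696 with array weights, -0.01 and -0.02 without WT replicates 1 and 2, and -0.04 without WT replicate 2 and NCOR_KO replicate 1. Pklr went to 0.12 and 0.13 without WT replicates 3 and 4, and to 0.04 and 0.000872 without NCOR_KO replicates 1 and 2. Causes of these changes were not tested. The values carry no background measure, so how far the dimmest genes, such as Pfkfb4, Hk1 and Ldhb below the median gene level, stand above background is unknown.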

Other observations

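Several fructose and hexosamine genes outside the member list had lower values in NCOR_KO livers without passing the threshold; apart from Gfpt1 they were chosen after their values were seen. Slc2a5, a fructose transporter, differed by -0.61 ± 0.17 (limma adjusted p = 0.114), with 7.68, 7.68, 7.87 and 8.05 in WT and 6.77, 7.02, 7.36 and 7.68 in NCOR_KO livers. Tkfc, which phosphorylates the glyceraldehyde released from fructose, read 11.53, 11.58, 11.83 and 11.96 in WT and 11.40, 11.35, 11.38 and 11.39 in NCOR_KO livers (-0.34 ± 0.09, limma adjusted p = 0.105).

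Ogt, which attaches N-acetylglucosamine to proteins, and Oga, which removes it, differed by -0.33 and -0.27 (limma adjusted p = 0.0774 and 0.108). Gne, the first enzyme of sialic acid synthesis, differed by -0.26 (limma adjusted p = 0.115). Of transporters also chosen after their values were seen, Slc16a1, a lactate and ketone carrier, differed by 0.47 ± 0.11, with all NCOR_KO values (10.20 to 10.75) above all WT values (9.84 to 10.13; limma adjusted p = 0.0692). Slc2a4, the insulin-regulated transporter of muscle and fat, was dim in both groups and differed by 0.56 ± 0.17 (limma adjusted p = 0.144).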
